A study of Mus musculus with 4 samples.

Results

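Nicotinic acetylcholine receptors are ion channels made of 5 subunits that open when acetylcholine binds. Alpha subunits carry the principal face of the binding site, and most beta subunits supply the complementary face. In the central nervous system many receptors join CHRNA4 with CHRNB2, while autonomic ganglia rely on CHRNA3 with CHRNB4 and the accessory subunit CHRNA5. CHRNA7 can form a channel on its own, and CHRNB1 belongs to the receptor of muscle. The subunit genes *Chrna5*, *Chrna3* and *Chrnb4* lie next to each other in one genomic cluster.

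The 7 subunit genes described here are *Chrna3*, *Chrna4*, *Chrna5*, *Chrna7*, *Chrnb1*, *Chrnb2* and *Chrnb4*, taken by symbol from the 24421 genes of the deposited expression table. They were chosen by measured values, since the comparison of mutant with control cells was known when the list was drawn up and *Chrna4* stood out in it as an abundant gene. Their levels and differences are therefore given as a description, without p-values. They were part of the fit over all genes, and whether they met its thresholds is stated only to describe them. The other 9 nicotinic subunit genes of the table form the rest of the family.

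The transcripts were measured by RNA-seq in mouse cells that had been sorted for GFP after the neural tube of E11.5 embryos was dissociated. In the knock-in allele a GFP cassette interrupts the first exon, which abolishes PRDM13, and GFP reports activity of the *Prdm13* locus. Control cells came from 7 *Prdm13* GFP/+ embryos, which carry 1 disrupted allele as well, and mutant cells from 9 *Prdm13* GFP/GFP embryos. RNA of each genotype was combined into 1 pool, and 2 libraries were made from each pool. The libraries of a genotype are thus technical replicates, and every spread and test below compares 2 pools, without the variation between embryos.

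The values are RPKM, reads scaled to exon length and to library size, so levels of different genes can be compared per length. Read numbers recovered from the RPKM values gave 12199784 to 19396085 reads per library. *Prdm13* itself stood at 114 and 127 RPKM in the control libraries and at 310 and 324 RPKM in the mutant libraries. Its remaining exons are still counted in the knock-in allele, so this level does not check the genotype labels. *Pax3*, a dorsal progenitor factor, was at 69.9 to 75.2 RPKM over the 4 libraries. Other dorsal genes differed more between the pools. The mean of *Pax7* was 18.6 RPKM in the controls and 14.6 RPKM in the mutants. For *Lbx1* the means were 97.6 and 63.9 RPKM, and for *Gsx1* 20.1 and 8.87 RPKM. Neuronal *Tubb3*, a tubulin gene, stood at 1017 to 1372 RPKM. Differences are given on the log2(RPKM + 0.1) scale as mutant minus control with a standard error (SE), which slightly understates the change of low genes. A gene was tested where its mean was at least 1 RPKM in either genotype, which held for 12046 genes and for 6 of the 7 subunits. A gene was called where the adjusted p of limma was under 0.05 and the fold was at least 1.5.

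The promoters of the subunit genes that differed most are shown first, because *Chrna3*, *Chrna5* and *Chrnb4* share a cluster and were all higher in the mutant, *Chrna4* on another chromosome was higher too, and *Chrna7* was lower. Each sequence is the 250 bases before a RefSeq transcription start in GRCm38.p6, written 5′ to 3′ on the strand of the gene. Capitals mark the letters CANNTG, the E-box core that basic helix-loop-helix factors bind. The windows are chr2:181039178-181039427 (minus strand) for *Chrna4*, chr9:55026563-55026812 (minus) for *Chrna3* and chr9:55048545-55048794 (minus) for *Chrnb4*. They are chr9:54980630-54980879 (plus) and chr9:54981238-54981487 (plus) for the upstream and downstream starts of *Chrna5*, and chr7:63212527-63212776 (minus) for *Chrna7*.
Chrna4: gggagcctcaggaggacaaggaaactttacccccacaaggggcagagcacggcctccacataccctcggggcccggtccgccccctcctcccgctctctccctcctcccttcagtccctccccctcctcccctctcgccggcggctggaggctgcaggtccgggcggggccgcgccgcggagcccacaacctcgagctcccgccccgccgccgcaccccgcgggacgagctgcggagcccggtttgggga
Chrna3: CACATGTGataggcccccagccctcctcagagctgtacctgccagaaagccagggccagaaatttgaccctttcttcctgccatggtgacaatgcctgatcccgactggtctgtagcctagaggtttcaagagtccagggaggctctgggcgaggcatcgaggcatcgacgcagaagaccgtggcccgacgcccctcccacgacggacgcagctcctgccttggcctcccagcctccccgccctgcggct
Chrnb4: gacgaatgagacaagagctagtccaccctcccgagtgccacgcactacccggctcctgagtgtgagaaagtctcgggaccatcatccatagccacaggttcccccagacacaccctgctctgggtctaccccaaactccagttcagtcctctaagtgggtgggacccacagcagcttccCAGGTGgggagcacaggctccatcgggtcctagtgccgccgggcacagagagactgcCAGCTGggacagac
Chrna5, upstream start: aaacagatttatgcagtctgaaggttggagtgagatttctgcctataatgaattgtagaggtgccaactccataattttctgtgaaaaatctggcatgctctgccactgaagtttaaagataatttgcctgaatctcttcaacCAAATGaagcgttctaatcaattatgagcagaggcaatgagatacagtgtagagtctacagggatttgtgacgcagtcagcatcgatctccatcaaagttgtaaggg
Chrna5, downstream start: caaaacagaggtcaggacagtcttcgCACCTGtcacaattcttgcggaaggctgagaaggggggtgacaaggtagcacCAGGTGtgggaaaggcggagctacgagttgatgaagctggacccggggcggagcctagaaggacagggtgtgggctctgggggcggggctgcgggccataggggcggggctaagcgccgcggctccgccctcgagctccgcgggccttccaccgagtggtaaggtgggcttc
Chrna7: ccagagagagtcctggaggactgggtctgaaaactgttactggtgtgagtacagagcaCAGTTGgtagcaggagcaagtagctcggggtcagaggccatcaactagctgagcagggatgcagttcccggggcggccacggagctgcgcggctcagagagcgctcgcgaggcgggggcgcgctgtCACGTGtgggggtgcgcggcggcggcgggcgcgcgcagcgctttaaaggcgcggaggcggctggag

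All 7 subunit genes had an entry among the promoter sequences, with 8 starts in all. CANNTG reads the same on both strands, and it occurred in 7 of these 8 windows, against 66.2% of all 32851 RefSeq promoter windows of this length. The *Chrna4* window was the one without a match, and with 74.4% G and C it was also the richest of the 8 in these bases. This window lies inside the RefSeq span of the gene, which runs on to base 181043579. The bases before that outer end were not searched, so the lack of a match holds for this window only. The *Chrnb4* window also lies inside its gene span, which ends at base 55048953. The RefSeq span of *Chrna5* starts at base 54980827, so its downstream window lies inside the span and its upstream window runs into it. *Chrna3* had 2 overlapping matches at the far end of its window, which share letters within one capital run. *Chrnb4* had 2 separate matches, of which 1 was CAGCTG, a form of CANNTG found in 13.0% of all windows. CAGATG or its complement CATCTG, found in 14.4% of all windows and also a form of CANNTG, was in none of the 8. These matches describe the letters in the windows and say nothing about binding.

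In the control cells *Chrna4* was the most abundant of the 7 subunits, and it was about 3 times as high in the mutant cells. *Chrna3* and its cluster neighbours *Chrnb4* and *Chrna5* were also higher in the mutant, *Chrnb2* was slightly higher, *Chrna7* was lower, and *Chrnb1* was near the limit of detection in both. Of the 6 tested subunits, 4 were called higher and 1 was called lower, beside 3.65% of all tested genes called higher and 2.67% called lower. Both mutant libraries lay above both control libraries for 5 of the 6 and below them for 1, beside 31.7% and 30.3% of all tested genes. The rule that chose the genes used this contrast, so nothing is read from these counts. Without a filter on RPKM *Chrna4* alone of the subunits kept its call. In pooled bulk RNA, more cells that express a gene and more RNA per cell cannot be told apart.

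**Figure D1:**
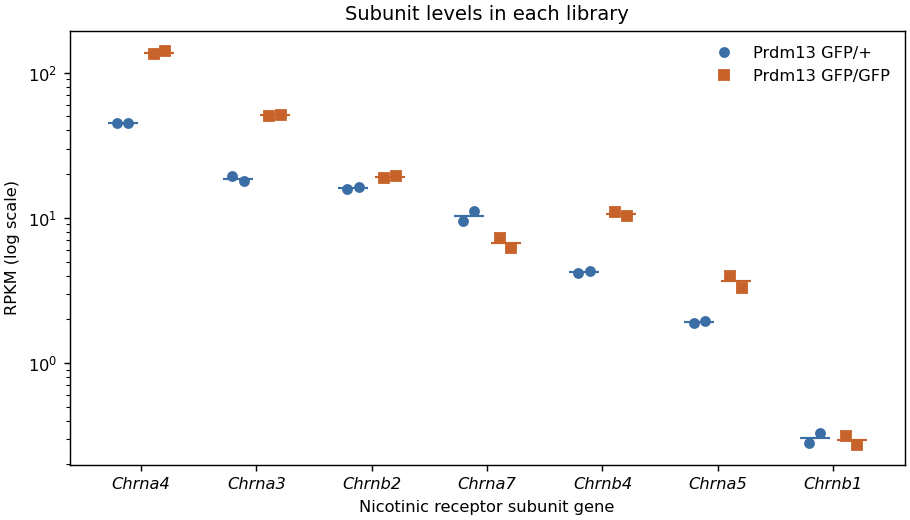
RPKM on a log axis of the 7 subunit genes in each library, ordered by control mean, with circles for the 2 Prdm13 GFP/+ libraries, squares for the 2 Prdm13 GFP/GFP libraries and a short line at each mean. Chrna4 runs from 44.7 and 45.2 to 134 and 141 RPKM, Chrna7 is the only tested subunit that is lower in the mutant libraries, and the Chrnb1 libraries overlap.

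*Chrna4* (gene ID 11438, chr2:181022311-181043579, minus strand, GRCm38.p6) encodes the alpha subunit of the most common brain receptor. Its level was 45.2 and 44.7 RPKM in the control libraries and 134 and 141 RPKM in the mutant libraries. These values rest on 2319 and 3632 reads in the controls and 9668 and 8560 reads in the mutants. The mean went from 44.9 ± 0.345 RPKM (SD, n = 2) to 138 ± 4.97 RPKM (SD, n = 2), a ratio of 3.06 and a log2 difference of 1.61 (SE 0.05). The pools were far apart relative to the spread of either pair of libraries, but that spread is technical and gives no test of a selected gene. In the order of control levels, 85.2% of the tested genes were below *Chrna4*, and in the mutant 96.5% were, with 419 genes above it.

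*Chrnb2* (gene ID 11444, chr3:89753448-89764632, minus strand), the usual partner of *Chrna4*, differed far less. It stood at 15.7 and 16.3 RPKM in the control libraries and 18.7 and 19.4 RPKM in the mutant libraries, from 981 to 1641 reads per library. The mutant libraries were both higher, but the ratio of the means was only 1.19, with a log2 difference of 0.25 (SE 0.06), below the fold for a call. As a result, the ratio of *Chrna4* to *Chrnb2* within a library was 2.87 and 2.75 in the controls and 7.15 and 7.28 in the mutants. The excess of the alpha over the beta transcript was therefore larger in every mutant library than in any control library.

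The 3 genes of the cluster on chromosome 9 span 68127 bases. *Chrna3* (gene ID 110834, chr9:55010117-55026562, minus strand) encodes the principal alpha subunit of ganglionic receptors. It stood at 19.3 and 17.9 RPKM in the controls and 50.7 and 51.1 RPKM in the mutants, from 698, 1025, 2572 and 2183 reads. The means were 18.6 ± 0.990 and 50.9 ± 0.318 RPKM (SD, n = 2 each), a ratio of 2.73 and a log2 difference of 1.45 (SE 0.06). Like *Chrna4*, it showed a gap between the pools that was larger than the technical spread within either, which again gives no test.

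*Chrnb4* (gene ID 108015, chr9:55028154-55048953, minus strand), the beta partner of *Chrna3*, was at 4.14 and 4.29 RPKM in the controls. In the mutants it was at 10.9 and 10.3 RPKM, a ratio of 2.52 and a log2 difference of 1.31 (SE 0.07), from 167 to 617 reads per library. The pair kept nearly the same proportion. *Chrna3* over *Chrnb4* was 4.67 and 4.18 in the control libraries and 4.65 and 4.94 in the mutant libraries, so these ratios overlapped between the genotypes, unlike those of *Chrna4* over *Chrnb2*.

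*Chrna5* (gene ID 110835, chr9:54980827-55011420, plus strand) encodes a subunit that joins receptors of other subunits but cannot bind acetylcholine as they do. Its level was 1.89 and 1.93 RPKM in the controls and 3.998 and 3.28 RPKM in the mutants, from 60, 97, 178 and 123 reads. The ratio of the means was 1.90 and the log2 difference 0.89 (SE 0.13). With so few reads the 95% Poisson intervals are wide, 1.44 to 2.44 RPKM in the first control library and 2.73 to 3.92 RPKM in the lower mutant library, but they do not meet. Those intervals cover counting error only and give no test of a selected gene. *Chrna5* lost its call without control library 2 and without mutant library 1, where its log2 difference was 0.90 and 0.75. *Chrna5* and *Chrna3* run towards each other and their RefSeq spans overlap by 1304 bases. Exons of their transcripts with a RefSeq match in the GENCODE vM21 annotation share 0 bases. Whether reads were counted by strand was not stated, so the division of reads between *Chrna5* and *Chrna3* at this overlap is uncertain.

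*Chrna7* (gene ID 11441, chr7:63098692-63212526, minus strand), the subunit of calcium-permeable homomeric receptors, was the exception in direction. It stood at 9.55 and 11.1 RPKM in the control libraries and 7.27 and 6.19 RPKM in the mutant libraries, from 231, 425, 247 and 177 reads. The means were 10.3 ± 1.09 and 6.73 ± 0.761 RPKM (SD, n = 2 each), so the control mean was 1.53 times the mutant mean, with a log2 difference of -0.61 (SE 0.11). Its groups did not overlap, but the difference was close to the fold for a call. The call was lost without control library 2, where the log2 difference was -0.50, and without mutant library 2, where it was also -0.50. It was lost with a pseudocount of 1 as well, where the log2 difference was -0.55.

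*Chrnb1* (gene ID 11443, chr11:69784036-69795966, minus strand), the beta subunit of the muscle receptor, was at 0.281 and 0.330 RPKM in the controls and 0.315 and 0.272 RPKM in the mutants. Only 7, 13, 11 and 8 reads lay behind these levels, and 7 reads have a 95% Poisson interval of 2.81 to 14.4 reads. The libraries of the genotypes overlapped, and no difference was detectable at this depth. The filter left *Chrnb1* out of the fit. The highest of the 9 other nicotinic subunit genes was *Chrna1*, the muscle alpha subunit, at 0.180 and 0.215 RPKM in the controls and 0.0854 and 0.118 RPKM in the mutants. All 9 were below 1 RPKM in every library, and together they summed to 0.197 to 0.293 RPKM. *Chrna2* was listed at 0 in all 4 libraries, where 3 reads would correspond to 0.0461 to 0.0729 RPKM.

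The order of the control means was *Chrna4*, *Chrna3*, *Chrnb2*, *Chrna7*, *Chrnb4*, *Chrna5* and *Chrnb1*. In the mutant, *Chrnb4* at 10.3 and 10.9 RPKM stood above *Chrna7* at 6.19 and 7.27 RPKM, and the rest of the order was as in the controls. No neighbours in either order had overlapping libraries. In the controls, *Chrna3* was at no less than 17.9 RPKM and *Chrnb2* at no more than 16.3 RPKM.

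The summed RPKM of the 7 subunits was 96.1 and 96.5 in the control libraries and 226 and 232 in the mutant libraries, 2.38 times as high on the mean. The mean sum was 132 RPKM higher in the mutant. *Chrna4* made up 69.9% of this difference and *Chrna3* 24.4%, while *Chrnb4* added 4.83%, *Chrnb2* 2.31% and *Chrna5* 1.30%. *Chrna7* went the other way and contributed -2.71%. The make-up of the subunit transcripts therefore differed between the pools. *Chrna4* took 47.0% and 46.3% of the sum in the controls and 59.3% and 60.9% in the mutants. The share of *Chrnb2* was 16.4% and 16.9% in the controls and 8.30% and 8.37% in the mutants, and that of *Chrna7* was 9.94% and 11.49% against 3.22% and 2.67%. In contrast, *Chrnb4* held 4.31% and 4.45% in the controls and 4.82% and 4.46% in the mutants. Between the beta subunits, *Chrnb2* over *Chrnb4* was 3.80 and 3.79 in the controls and 1.72 and 1.87 in the mutants. The alpha subunits of heteromeric receptors (*Chrna3*, *Chrna4* and *Chrna5*) together stood at 3.34 and 3.14 times the beta subunits *Chrnb2* and *Chrnb4* in the controls and at 6.37 and 6.58 times in the mutants.

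**Figure D2:**
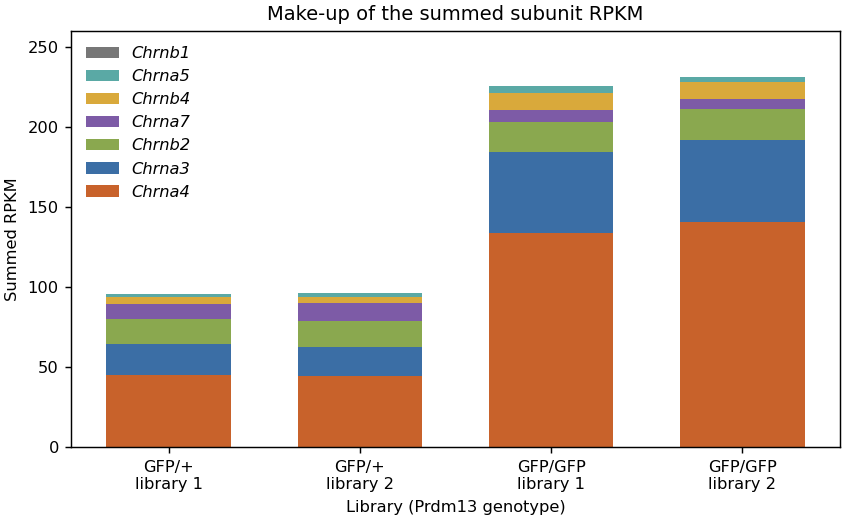
Summed RPKM of the 7 subunit genes in each of the 4 libraries, stacked by gene from Chrna4 at the bottom to Chrnb1 at the top. The total is 96.1 and 96.5 RPKM in the Prdm13 GFP/+ libraries and 226 and 232 RPKM in the Prdm13 GFP/GFP libraries, and the Chrna4 and Chrna3 segments account for most of the difference.

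The genes that make, break down, sense or help assemble the cholinergic system were examined next, in 6 lists. Of 43 such genes beside the 7 subunits, 33 had a mean under 1 RPKM in both genotypes, and of the 10 tested, 2 were called higher and 0 lower, beside 3.65% and 2.67% of all tested genes. The median log2 difference of the 10 was 0.10, and that of all tested genes was 0.01. The lists were drawn up with earlier results of these data known. Adjusted p-values given below for their genes are therefore descriptive, and they rest on 1 RNA pool per genotype. Both called genes, *Ly6h* and *Ly6e*, encode membrane-anchored proteins of the Ly6 family, whose members bind nicotinic receptors and alter their assembly or response.

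*Ly6h*, known to reduce signalling of receptors that hold CHRNA7, was at 17.5 and 23.1 RPKM in the controls and 54.8 and 61.0 RPKM in the mutants. Its log2 difference was 1.52 (SE 0.13, limma adjusted p = 0.00061). *Ly6e* was at 10.03 and 10.01 RPKM in the control libraries and at 16.6 and 16.5 RPKM in the mutants, with a log2 difference of 0.72 (SE 0.06, limma adjusted p = 0.000434). Both genes were higher in 2 of 2 mutant libraries than in either control library, which held for 31.7% of all tested genes. Without a filter on RPKM the limma adjusted p was 0.111 for *Ly6h*, which then lost its call, and 0.0426 for *Ly6e*.

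Among the chaperones, *Tmem35*, now named *Tmem35a*, encodes NACHO, which promotes assembly of neuronal receptors. It stood at 19.1 and 20.1 RPKM in the controls and 26.7 and 27.0 RPKM in the mutants, a log2 difference of 0.45 (SE 0.05, limma adjusted p = 0.00256) that was below the fold for a call. *Ric3*, a chaperone of CHRNA7 among others, was at 7.15 to 7.53 RPKM in all 4 libraries and its groups overlapped, with a log2 difference of -0.02 (SE 0.07). The other tested genes of this list were *Ubqln1*, a ubiquitin-like protein that binds subunits before they reach the surface, at 72.3 to 75.3 RPKM and a log2 difference of 0.03 (SE 0.05). *Ywhah*, a 14-3-3 protein, differed by 0.17 (SE 0.04) and *Ubxn2a*, an adaptor of subunit turnover, by -0.27 (SE 0.07), and neither was called. The Ly6 genes *Lynx1*, *Lypd1*, *Lypd6* and *Lypd6b* were below 1 RPKM in every library, and *Slurp1* and *Psca* were listed at 0 throughout.

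Most genes of acetylcholine supply were low. *Chat*, which makes acetylcholine, was at 0.123 and 0.175 RPKM in the controls and 0.0219 and 0.0520 RPKM in the mutants. Only 4, 9, 1 and 2 reads lay behind these levels, too few to read a difference from. *Slc18a3*, the vesicular transporter, reached no more than 0.565 RPKM in any library, and *Slc5a7*, the choline carrier of cholinergic terminals, no more than 0.133 RPKM. *Ache*, the main breakdown enzyme, was at 0.556 to 1.09 RPKM. The one tested gene of this list was *Slc44a1*, a general choline transporter, at 3.98 and 3.63 RPKM in the controls and 2.81 and 2.41 RPKM in the mutants, with a log2 difference of -0.53 (SE 0.12, limma adjusted p = 0.0268) that was below the fold for a call. All 5 muscarinic receptor genes, the other class of acetylcholine receptor, were below 1 RPKM in every library, and so were *Htr3a* and *Htr3b*, which encode related serotonin-gated channels.

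Of the genes that cluster receptors at the neuromuscular junction, *Rapsn*, *Musk* and *Dok7* were below 1 RPKM throughout. *Agrn*, whose product agrin is also secreted by many other cells, was at 110 and 115 RPKM in the controls and 124 and 133 RPKM in the mutants, a log2 difference of 0.19 (SE 0.05), and was not called. Its receptor gene *Lrp4* was at 7.19 to 8.07 RPKM with a log2 difference of -0.13 (SE 0.07), and was also not called.

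**Figure D3:**
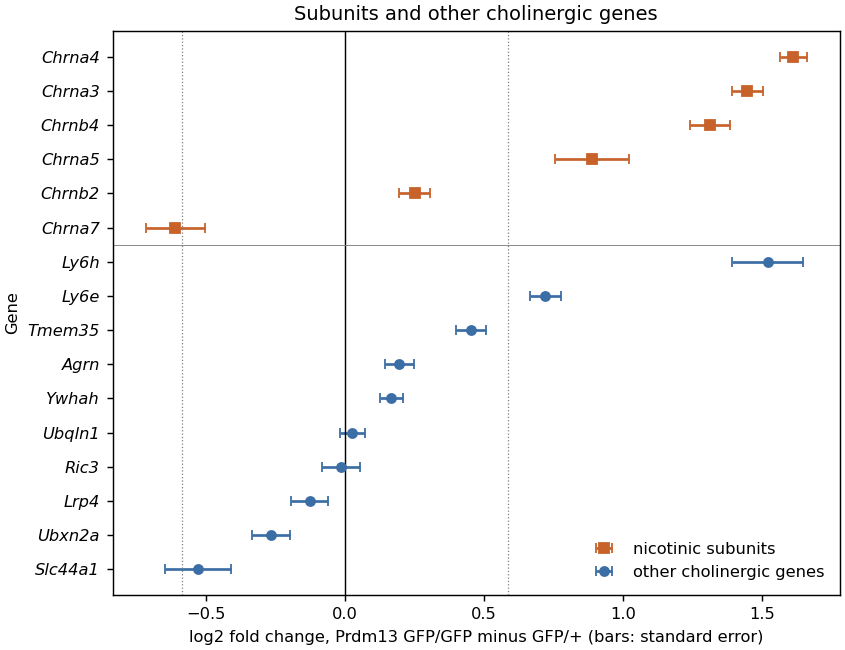
Log2 difference, Prdm13 GFP/GFP minus GFP/+, of the 6 tested subunits (squares) and the 10 tested other cholinergic genes (circles), with bars for the standard error and dotted lines at a fold of 1.5 in each direction. Chrna4, Chrna3, Chrnb4 and Ly6h lie between 1.31 and 1.61, while Ric3 and Ubqln1 lie near 0.

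The genes next to the subunit loci are described next. On each side of the *Chrna5*, *Chrna3* and *Chrnb4* cluster the 3 nearest protein-coding genes of the table were examined. Of these 6, 0 were called, beside 3.65% of all tested genes called higher and 2.67% called lower. With shares this low, so few genes cannot show how far the differences reached along the chromosome. *Psma4*, a proteasome subunit gene 22792 bases from the cluster, was abundant at 116 and 116 RPKM in the controls and 131 and 120 RPKM in the mutants, a log2 difference of 0.11 (SE 0.05). *Ube2q2*, an E2 ubiquitin-conjugating enzyme gene 100415 bases away on the other side, differed by 0.16 (SE 0.08). The remaining 4, *Hykk*, *AY074887*, *Fbxo22* and *Nrg4*, differed by 0.05 to 0.33.

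On chromosome 2, 5 genes near *Chrna4* are reported, of which 1 was called higher, beside 3.65% of all tested genes. *Col20a1*, a collagen gene 4765 bases away, was below 1 RPKM in every library. *Arfgap1*, 39784 bases away, was at 26.3 to 27.1 RPKM in the 4 libraries. *Nkain4*, which encodes a membrane protein that interacts with the sodium pump and lies 67373 bases away, was called higher. It was at 41.1 and 42.3 RPKM in the controls and 62.0 and 65.8 RPKM in the mutants, a log2 difference of 0.61 (SE 0.05, limma adjusted p = 0.00063). Both mutant libraries were above both control libraries, as for 31.7% of all tested genes. This call was lost without mutant library 2 (0.57), with quantile normalization (0.58) and without a filter on RPKM (limma adjusted p = 0.0619). *Eef1a2* and *Ppdpf*, on the other side of *Chrna4*, differed by 0.09 and 0.10 and were not called.

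**Figure D4:**
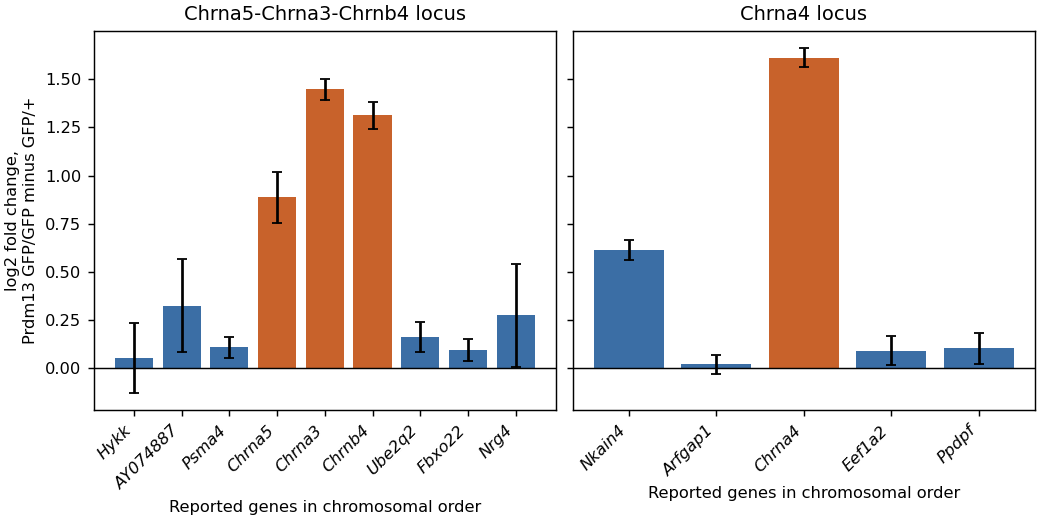
Log2 difference, Prdm13 GFP/GFP minus GFP/+, of the reported tested genes at the 2 loci in chromosomal order, with subunit genes in orange, neighbouring genes in blue and bars for the standard error. The subunit genes reach 0.89 to 1.61, and among the neighbours shown Nkain4 at 0.61 is the highest.

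Over the 4 libraries, the tested genes whose log2(RPKM + 0.1) pattern, centred per gene, lay nearest to *Chrna4* were *Adcyap1r1*, *Vstm2l* and *Sncg*, at Euclidean distances of 0.0471, 0.0556 and 0.0772. *Adcyap1r1*, the receptor of the neuropeptide PACAP, was at 8.61 and 8.47 RPKM in the controls and 24.7 and 26.2 RPKM in the mutants. *Sncg*, gamma-synuclein, was at 10.98 and 11.1 RPKM and then 35.0 and 34.5 RPKM. Nearest to *Chrna3* were *Dkk3*, *Scn3b* and *Pou4f2*, at 0.0445, 0.0836 and 0.0886. *Pou4f2*, a POU homeodomain factor of sensory neurons, was at 5.43 and 5.28 RPKM in the controls and 14.1 and 14.0 RPKM in the mutants. Nearest to *Chrna7* were *Wdr31*, *Samd4* and *Ltbp1*, at 0.0570, 0.0695 and 0.0912, all at 2.67 RPKM or less. With 4 libraries of 2 pools, such nearness mostly restates the size of the difference between the pools.

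Markers of cell types that could carry these receptors were measured in the same libraries. Of 8 marker lists, the 4 for motor neurons, skeletal muscle, endothelium and erythroid cells held 18 genes, none of which exceeded 0.632 RPKM in any library. Of the 5 sympathoadrenal markers reported here, 2 were tested and 1 was called higher. This was *Th*, which makes catecholamine precursors, at 4.48 and 4.50 RPKM in the controls and 7.98 and 7.28 RPKM in the mutants. The other tested gene, *Chga*, was at 17.2 and 18.1 RPKM in the controls and 19.5 and 21.1 RPKM in the mutants. Its log2 difference of 0.20 (SE 0.06) was below the fold for a call. *Hand2*, *Gata3* and *Dbh* were at 0.128 RPKM or less in every library. The 5 genes summed to 21.7 and 22.7 RPKM in the controls and 27.7 and 28.6 RPKM in the mutants, with the largest part from *Chga*.

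The 6 sensory ganglion markers reported here, among them *Avil*, *P2rx3* and *Runx3*, were each below 1 RPKM in every library and summed to 1.67 and 2.29 RPKM in the controls and 1.60 and 1.88 RPKM in the mutants. In the list for neural crest and glia, *Foxd3*, a forkhead factor that is also made by dorsal interneurons, was called lower, from 10.1 and 12.8 RPKM to 4.20 and 4.25 RPKM, while *Sox10* and *Erbb3* were below 1 RPKM. The 4 genes of this list reported here summed to 12.2 and 15.2 RPKM in the controls and 6.90 and 7.27 RPKM in the mutants. The dorsal neural tube list had 6 genes reported here, which include the pan-neuronal *Tubb3* and *Elavl3*. Of these 6, *Lbx1* and *Gsx1* were called lower, with log2 differences of -0.61 (SE 0.10) and -1.18 (SE 0.10), and 0 were called higher. *Pax3* and *Pax7* differed by -0.09 (SE 0.04) and -0.35 (SE 0.06), below the fold for a call. The *Lbx1* call was lost without control library 2 (-0.49) and without mutant library 1 (-0.51). Without a filter on RPKM, *Th*, *Foxd3*, *Lbx1* and *Gsx1* each lost the call. The pan-neuronal genes *Tubb3* and *Elavl3* differed by 0.34 (SE 0.05) and 0.17 (SE 0.05), below the fold for a call. The part of these markers in the subunit differences was not tested.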

How the data were processed

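Libraries were assigned to genotypes from the sample labels. The authors aligned reads to mm10 with TopHat2 (v.2.1.0), counted them on RefSeq exons with featureCounts, normalised with TMM in edgeR (v.3.6.8) and deposited RPKM values, which were used here without further scaling. The kit and counting settings for strand were not stated. Read numbers were recovered as whole multiples of the RPKM that 1 read is worth in a gene and library. Reads came out whole, within 0.002 of a read, for 99.6% of the 19200 genes above 0, in 12199784, 19396085, 17269317 and 14606976 reads per library, and 72.3% of the solved exon lengths lay within 5% of the annotation.

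Limma was run on log2(RPKM + 0.1) for genes whose mean reached 1 RPKM in control or mutant cells (v.3.58.1, lmFit and eBayes with a trend, two-sided) in R (v.4.3.3), with Benjamini-Hochberg adjustment over all 12046 genes tested. The script was tested on simulated data. The subunits, gene lists and alternatives were chosen with earlier results of these data known. Named genes were the 7 subunits, list genes with a mean of at least 1 RPKM or a call, the 3 protein-coding neighbours on each side of a locus, and the 3 genes nearest in pattern to each of *Chrna4*, *Chrna3* and *Chrna7*. Other listed genes named as low were picked after their values were seen. Promoter sequences and coordinates are those of RefSeq on GRCm38.p6, the assembly that mm10 represents. Alternatives covered the pseudocount, filter, scaling, prior, block, each library left out, and limma voom on recovered reads. ChIP-seq data were not analysed here, and some genes of the lists and loci are not reported here.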

Additional observations from a re-analysis of the deposited data

How the results depend on the processing

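The log2 differences of the 6 tested subunits kept their direction under every alternative run, over ranges of 1.56 to 1.65 for *Chrna4*, 1.39 to 1.501 for *Chrna3*, 1.15 to 1.35 for *Chrnb4*, 0.67 to 1.03 for *Chrna5*, 0.23 to 0.27 for *Chrnb2* and -0.72 to -0.50 for *Chrna7*. Beside 440 genes called higher and 322 lower, the fit without a filter on RPKM called 30 and 14, and of the subunits it called 1 higher, *Chrna4*, and 0 lower, and of the other cholinergic genes 1 higher. The cause was not tested. With a pseudocount of 1, 0 subunits were called lower. Leaving out each library in turn gave 258 to 437 genes called higher, 212 to 266 lower, 3 to 4 subunits higher and 0 to 1 lower, with the fewest calls over all genes without mutant library 2. Values near 0 changed sign for *Arfgap1* (-0.0026) and *Ubqln1* (-0.040) with quantile normalization. Leaving out each library in turn also changed the sign for *Hykk* (-0.052 to 0.16), *Nrg4* (-0.039 to 0.59) and *Ric3* (-0.052 to 0.021), none of which was called.

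The replicate numbers pair no samples that the sources describe as shared, and same-numbered libraries hardly deviated together (r = 0.0475 over 12046 genes). With a replicate block 459 genes were called higher and 342 lower, and 4 subunits higher and 1 lower. Limma voom on recovered reads called 440 and 371. Depth limits *Chrnb1* and the other subunits with few reads, and all spreads are technical.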
